A study of Mus musculus with 9 samples.

Results

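Cone phototransduction genes were followed in RNA of mouse retinal cells that had been picked as ganglion cells, whose axons make up the optic nerve. The members are 10 protein-coding genes found by gene symbol among the 50764 rows of the deposited count table (Opn1sw, Opn1mw, Arr3, Gnat2, Gngt2, Pde6c, Pde6h, Cnga3, Cngb3 and Thrb), and each had exactly 1 row. The mice were adult males labelled WT, and the optic nerve of every group had been crushed (ONC) 14 days before collection. The vitreous had received 1.5 µL of an AAV2 virus, which the labels also put at 14 days, and they give AAV-GFP for the GFP group, AAV-Olig2 for the Olig2 group and AAV-Olig3 for the Olig3 group, with 3 libraries in each group. Both viral genes code for transcription factors of the basic helix-loop-helix family. The comparisons of Olig2 and of Olig3 with GFP share the GFP libraries. Each library was made from a pool of a few picked cells, between 10 and 20 depending on the part of the labels, after beads against CD90.2 (Thy1) and a pick by green fluorescence. Which promoter drove the viral genes is not stated in the labels. Nor do the labels say whether libraries came from different mice, so each p-value measures spread among libraries that may be technical.

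Cones are the photoreceptors of daylight and colour vision. In their outer segments a light-activated opsin switches on the cone transducin, transducin releases the phosphodiesterase PDE6 from its inhibitory subunit, cyclic GMP falls, and the cyclic nucleotide-gated channel closes. Cone arrestin ends the response of the opsin. Mouse cones express the S opsin Opn1sw and the M opsin Opn1mw, often in the same cell and in opposite gradients across the retina, and the thyroid hormone receptor gene Thrb acts in cone identity and in the switch between the opsins. Rods use a parallel set of proteins coded by other genes.

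The libraries held transcripts of other retinal cells beside those of the labelled type. The 14 ganglion cell markers summed to 976 to 2194 CPM (the usual scaling of counts to a common library total) in the GFP libraries, 255 to 475 CPM in the Olig2 libraries and 203 to 362 CPM in the Olig3 libraries. The 11 rod genes listed summed to 25529.6 to 36806, 44083 to 86549 and 35285 to 87379 CPM in the same order. Total counts ran from 5355691 to 6979851 per library, so that the 3 counts a count of 0 allows came to 0.430 to 0.560 CPM. This floor covers counting error only, whereas each SD and SE given below includes the spread between libraries. Several libraries stood apart. Olig2 libraries 2 and 3 and Olig3 library 2 had 6.15 to 11.7% of their counts in the noncoding RNA Malat1, against 2.65 to 4.14% in the other 6, and Olig3 libraries 1 and 3 had 16188 and 14434 detected genes, against 18184 to 21338 elsewhere. In pooled cells, fewer cones in a pick and less RNA per cone cannot be told apart.

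The promoters of 7 members were found in the RefSeq promoter table (GRCm38.p6). The 250 bases before the start are shown for the arrestin, transducin and S opsin genes, which were picked because each held a match. Their edgeR log2 changes for Olig3 over GFP were 3.12, 2.31 and 2.24. The windows of Opn1mw (log2 change 2.53) and Pde6h (1.65) held no match. Cnga3 (1.90) and Thrb (1.06) also held matches and are not shown. The windows are chrX:100605247-100605496 on the plus strand for Arr3, chr3:108092816-108093065 on the plus strand for Gnat2 and chr6:29380514-29380763 on the minus strand for Opn1sw, printed 5′ to 3′. Capitals mark a match, on either strand, to TAATCC (Crx-type), AGGTCA (a nuclear receptor half-site), CAGCTG or CATATG (2 E-boxes of the kind that basic helix-loop-helix factors bind).
Arr3: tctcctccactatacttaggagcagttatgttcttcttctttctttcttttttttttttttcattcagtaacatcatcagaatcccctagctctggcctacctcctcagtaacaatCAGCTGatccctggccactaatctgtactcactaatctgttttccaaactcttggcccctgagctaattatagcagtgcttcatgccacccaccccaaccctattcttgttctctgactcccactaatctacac
Gnat2: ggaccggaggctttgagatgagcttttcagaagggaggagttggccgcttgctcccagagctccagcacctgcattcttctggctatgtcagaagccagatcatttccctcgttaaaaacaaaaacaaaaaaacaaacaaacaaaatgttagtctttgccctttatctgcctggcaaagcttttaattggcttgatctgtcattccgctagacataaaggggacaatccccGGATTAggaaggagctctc
Opn1sw: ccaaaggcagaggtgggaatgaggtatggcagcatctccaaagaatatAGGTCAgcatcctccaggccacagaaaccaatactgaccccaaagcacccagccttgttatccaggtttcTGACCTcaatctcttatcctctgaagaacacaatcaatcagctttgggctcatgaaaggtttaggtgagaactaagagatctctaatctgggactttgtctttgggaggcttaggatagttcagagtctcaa
TAATCC was found 19 to 14 bases before the start of Gnat2 and 46 to 41 bases before 1 of the 2 starts of Thrb, and in 6.25% of all 32851 promoters. AGGTCA was found in Opn1sw, on both strands, and in Thrb, against 14.0% of all promoters. CAGCTG was found in Arr3, 134 to 129 bases before the start, and in Cnga3, against 13.0% of all promoters. CATATG, present in 3.46% of all promoters, was in none of the member windows. No match overlapped another. A match is a description of these letters and says nothing of binding.

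The first question was how much cone transcript the picks held. The members summed to 1139.6, 1364 and 539.9 CPM in GFP libraries 1 to 3, to 777, 1823 and 1348 CPM in the Olig2 libraries, and to 4367, 2051 and 7519.6 CPM in the Olig3 libraries. Every Olig3 library lay above every GFP and Olig2 library. The group means were 1014 ± 426 CPM with GFP, 1316 ± 523 with Olig2 and 4646 ± 2745 with Olig3 (SD, n = 3 each). Opn1sw gave the most counts of any member in 8 of the 9 libraries, between 19.7 and 56.2% of the cone sum, and Opn1mw exceeded it in Olig2 library 3. Gnat2 kept a narrow share of 11.2 to 14.9% in all 9 libraries, while the share of Arr3 ran from 6.28 to 18.3% and that of Thrb from 1.11 to 11.6%.

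**Figure D1:**
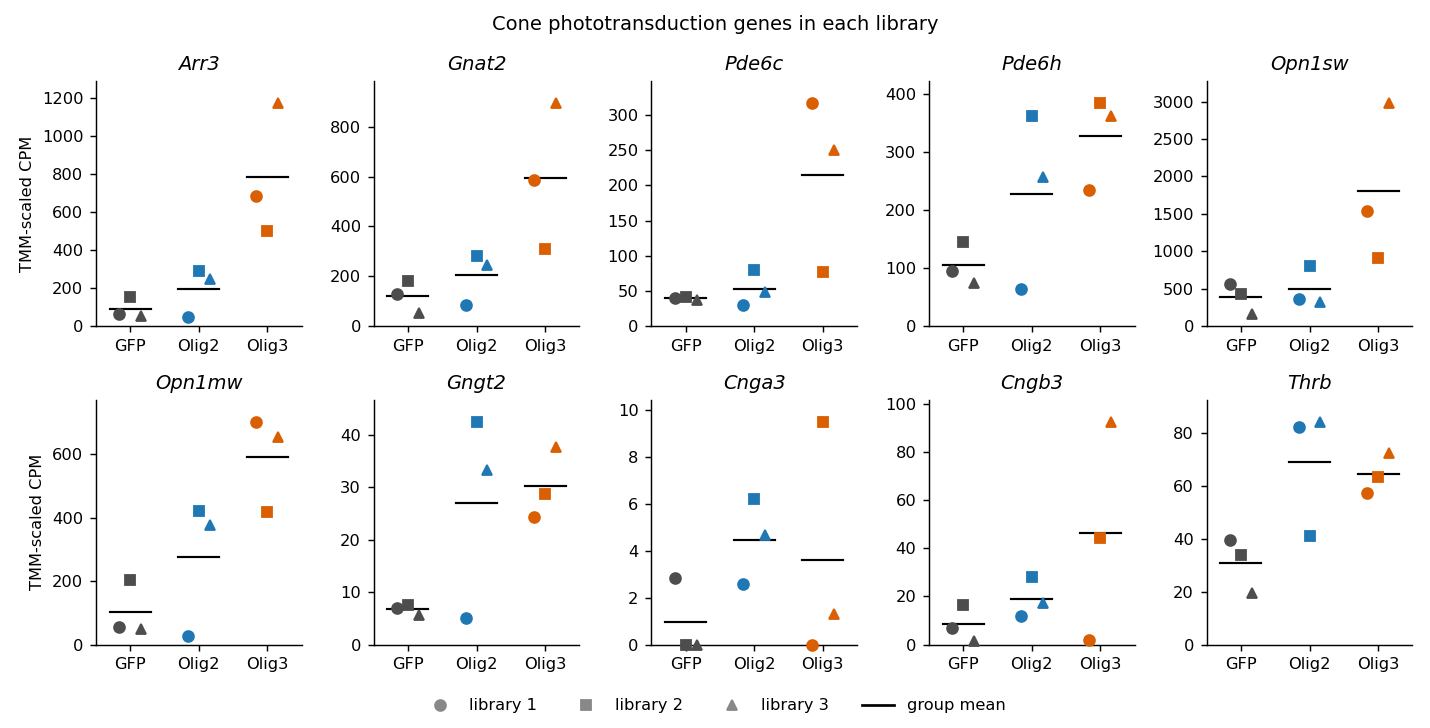
Level of each member (TMM-scaled CPM, linear axes from 0) in each library of the GFP, Olig2 and Olig3 groups, with the marker shape giving the library and the line the group mean of 3. For 8 of the 10 genes all Olig3 libraries lie above all GFP libraries, and Olig2 library 1 lies far below Olig2 libraries 2 and 3 for Arr3, Pde6h, Opn1mw and Gngt2.

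Over all genes, edgeR's quasi-likelihood test called 32 of 15609 genes between Olig3 and GFP at a Benjamini-Hochberg adjusted p below 0.05 (0.205% of all genes), and 0 of the 10 cone genes. With only these groups in the fit, edgeR called 0 genes in all, and with any single library left out 0 to 2, except 505 without Olig3 library 2. At an unadjusted p below 0.05, 9 of the 10 were higher with Olig3, against 5.76% of all genes, and in 8 of 10 the Olig3 libraries lay wholly above the GFP libraries, against 7.18% of all genes. The remaining pair was Cnga3 and Cngb3. The median log2 difference of the members in scaled CPM was 2.15, where that of all genes was -0.18. At the same adjusted threshold DESeq2 called 6 of the 10 (Arr3, Gnat2, Pde6c, Pde6h, Opn1sw and Gngt2), against 3.16% of all genes. Limma-voom called 2 (Arr3 and Opn1sw), against 78 of all 15609 genes. The lowest edgeR adjusted p were 0.0742 for Pde6c and 0.0799 for Arr3.

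**Figure D2:**
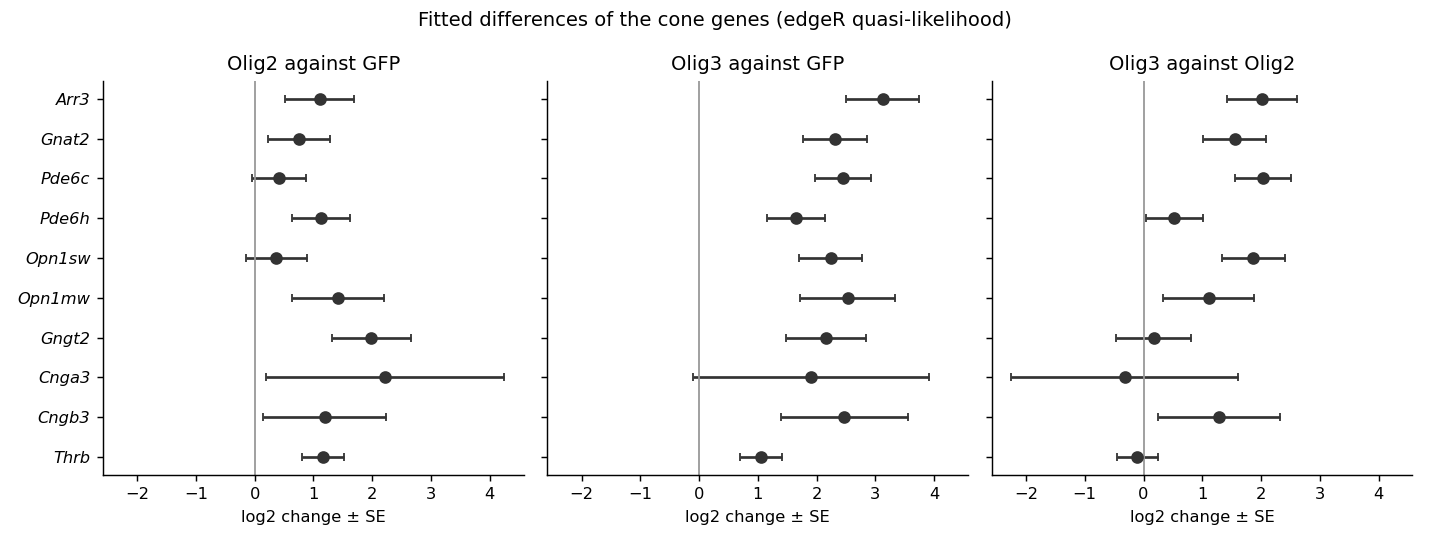
Fitted log2 change of each member with its standard error (edgeR quasi-likelihood, all 9 libraries in 1 model) for Olig2 over GFP, Olig3 over GFP and Olig3 over Olig2. All 10 genes lie above 0 in both comparisons with GFP, from 0.37 to 2.22 with Olig2 and from 1.06 to 3.12 with Olig3, and Cnga3 and Thrb lie below 0 between the factors.

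The opsins came first in the cascade. Opn1sw (ENSMUSG00000058831, chr6 29376671 to 29388468, mm10) was at 561, 427 and 162 scaled CPM (CPM further adjusted by edgeR's TMM factors for library composition) in GFP libraries 1 to 3, 359, 804 and 323 in the Olig2 libraries, and 1538, 912 and 2976 in the Olig3 libraries. All Olig3 libraries exceeded all others, by the widest margin in library 3, and the Olig2 and GFP libraries overlapped. The group means were 383 ± 203, 495 ± 268 and 1809 ± 1058 scaled CPM (n = 3 each), 4.72-fold between Olig3 and GFP (log2 change 2.24, SE 0.54, edgeR adjusted p = 0.145). At its 3′ end 397 of its 2557 exon bases overlap Calu, a gene of the other strand, whose own counts were 1080.0 and 1346 in Olig3 libraries 1 and 3 and 252 to 693 in the other 7. The libraries highest in Opn1sw were thus those highest in Calu, and the part of the overlap was not tested. Opn1mw (chrX 74127464 to 74150760) was at 54.9, 204 and 48.9 scaled CPM with GFP, 25.5, 422 and 377 with Olig2, and 703, 417 and 656 with Olig3. Here Olig2 library 1 was the lowest of all 9 libraries, Olig2 library 2 slightly exceeded Olig3 library 2, and the Olig3 and GFP libraries did not overlap. Olig3 was 5.77-fold above GFP (log2 change 2.53, SE 0.81, edgeR adjusted p = 0.266).

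The balance of the opsins varied between libraries of the same group. Per kilobase of exon, S opsin transcripts were 6.24, 1.28 and 2.02 times the M opsin transcripts in the GFP libraries, 8.58, 1.16 and 0.523 times in the Olig2 libraries, and 1.34, 1.34 and 2.77 times in the Olig3 libraries. The groups overlapped throughout. GFP library 1 and Olig2 library 1 were the most S-rich, with 367 and 179 counts of Opn1mw beside 3748 and 2515 of Opn1sw, and Olig2 library 3 was the only one with more M than S opsin.

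**Figure D3:**
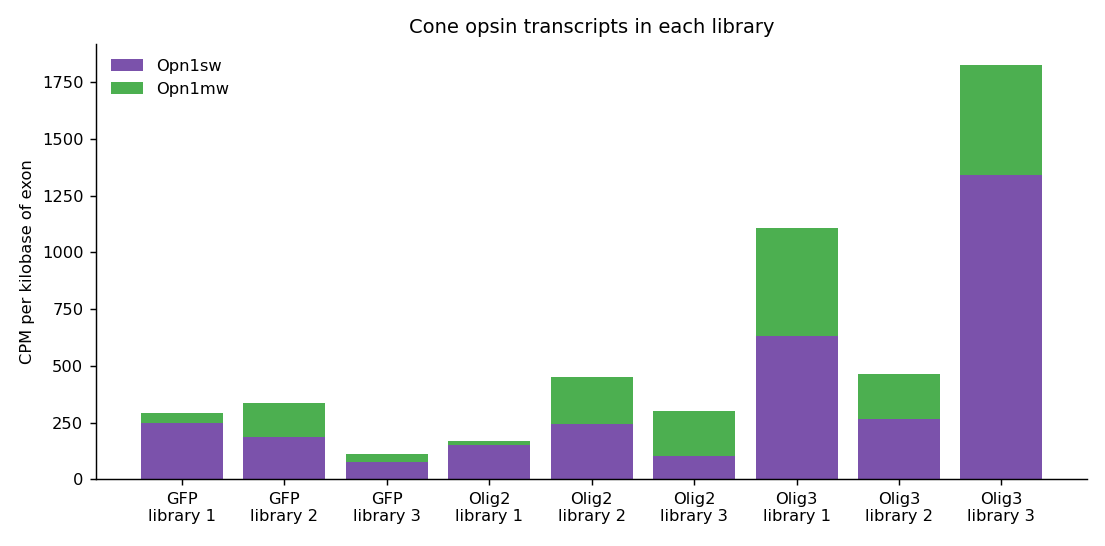
Opn1sw and Opn1mw transcripts in each library as stacked bars (CPM of the library total per kilobase of exon). Olig3 libraries 1 and 3 have the tallest bars, and M opsin is a small part of the bar in GFP library 1 and Olig2 library 1.

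Arr3, cone arrestin (ENSMUSG00000060890, chrX 100605497 to 100618493), had the widest difference of the members between Olig3 and GFP. It was at 62.7, 153 and 55.0 scaled CPM in the GFP libraries, 47.4, 289 and 249 in the Olig2 libraries, and 685, 502 and 1173 in the Olig3 libraries. The lowest Olig3 library was 3.27 times the highest GFP library, and Olig2 library 1 was again the lowest of all. The means were 90.4 ± 54.8, 195 ± 129 and 787 ± 347 scaled CPM, 8.70-fold between Olig3 and GFP (log2 change 3.12, SE 0.63, edgeR adjusted p = 0.0799) and 4.03-fold between Olig3 and Olig2 (log2 change 2.01, SE 0.60, edgeR adjusted p = 0.865).

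Of the transducin subunits, Gnat2, the cone alpha subunit that carries the GTP (ENSMUSG00000009108, chr3 108092789 to 108101432), was at 129.6, 179.9 and 51.5 scaled CPM with GFP, 84.3, 283 and 244 with Olig2, and 585, 308 and 894 with Olig3. The Olig3 libraries did not overlap either other group. Olig3 was 4.95-fold above GFP (log2 change 2.31, SE 0.54, edgeR adjusted p = 0.133) and 2.92-fold above Olig2 (log2 change 1.55, SE 0.53, edgeR adjusted p = 0.918). Gngt2, the cone gamma subunit, which is also known from myeloid cells (chr11 95837216 to 95845734), was at 7.03, 7.62 and 5.62 scaled CPM with GFP, 5.14, 42.4 and 33.2 with Olig2, and 24.3, 28.8 and 37.6 with Olig3. Its highest libraries were thus spread over both factor groups, with Olig2 library 1 at the GFP level. Its fold over GFP was 3.98 with Olig2 (log2 change 1.99, SE 0.67, edgeR adjusted p = 0.731) and 4.47 with Olig3 (log2 change 2.16, SE 0.67, edgeR adjusted p = 0.260). Abi3, a gene expressed in microglia and blood cells on the other strand, shares 234 exon bases with Gngt2 and had 16 to 70 counts per library, 69 and 16 of them in Olig3 libraries 1 and 3. The 15 microglia and macrophage genes summed to 57.6 to 278 CPM with GFP, 87.7 to 369 with Olig2 and 124 to 349 with Olig3. Of the 14 tested, 12 had fitted changes above 0 for Olig2 over GFP and 9 for Olig3 over GFP. C1qa was at 7.54 ± 7.79 scaled CPM with GFP, 32.9 ± 22.3 with Olig2 and 18.8 ± 11.4 with Olig3. It alone was higher with Olig2 at an unadjusted p below 0.05 (2.61% of all genes, edgeR adjusted p = 0.981). Tmem119 had no counts in 6 of the 9 libraries. The part of these genes in the Gngt2 level was not tested.

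The beta subunit Gnb3, which is no member and was chosen after its values were seen, serves cones and also ON bipolar cells. It was at 1720.05 ± 150.5 scaled CPM with GFP, 1383.8 ± 244 with Olig2 and 1291.3 ± 129.6 with Olig3 (log2 change -0.41 for Olig3 over GFP, SE 0.22, edgeR adjusted p = 0.488). All 3 Olig3 libraries were below the GFP libraries for Gnb3, where for Gnat2 all 3 were above them.

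Of the phosphodiesterase, Pde6c, the cone catalytic subunit (ENSMUSG00000024992, chr19 38132781 to 38183958), was at 39.4, 40.9 and 37.6 scaled CPM with GFP, 30.2, 80.1 and 47.7 with Olig2, and 317, 77.04 and 251 with Olig3. The GFP libraries were close to each other, and Olig3 libraries 1 and 3 were 4.11 and 3.25 times Olig3 library 2. Olig3 was 5.47-fold above GFP (log2 change 2.45, SE 0.48, edgeR adjusted p = 0.0742), and Olig2 library 2 exceeded Olig3 library 2. Pde6h, the cone inhibitory subunit (ENSMUSG00000064330, chr6 136923832 to 136968865), was at 94.4, 145 and 74.8 scaled CPM with GFP, 63.8, 363 and 258 with Olig2, and 236, 384 and 363 with Olig3. In scaled CPM its highest library was Olig3 library 2, so that it did not share the excess of Olig3 libraries 1 and 3. The order depended on the scaling, since in unscaled CPM the Olig3 libraries were at 248, 287 and 419, with library 3 the highest. Olig3 was 3.13-fold above GFP (log2 change 1.65, SE 0.50, edgeR adjusted p = 0.247) and 1.44-fold above Olig2 (log2 change 0.52, SE 0.49, edgeR adjusted p = 0.934). The upstream exons of Pde6h overlap Arhgdib on the other strand by 136 bases.

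The channel genes had the least regular pattern, and 1 of them, Cnga3, had the fewest counts of any member. Cnga3, the alpha subunit (chr1 37214434 to 37263384), had 19, 0 and 0 counts in the GFP libraries, 18, 26 and 26 in the Olig2 libraries, and 0, 38 and 9 in the Olig3 libraries. It was thus without a count in Olig3 library 1, where Gnat2 had 3964 and Opn1sw 10427 counts. Its log2 change was 2.22 with Olig2 (SE 2.03) and 1.90 with Olig3 (SE 2.01) over GFP, with edgeR adjusted p of 1 and 0.747. Cngb3, the beta subunit (chr4 19280850 to 19510623), was at 7.03, 16.6 and 1.34 scaled CPM with GFP, 11.8, 28.1 and 17.4 with Olig2, and 2.06, 44.3 and 92.7 with Olig3. Olig3 library 1 was near the bottom of the order and Olig3 library 3 at the top. The fitted log2 change over GFP was 2.47 with Olig3 (SE 1.08, edgeR adjusted p = 0.382) and 1.19 with Olig2 (SE 1.04, edgeR adjusted p = 1).

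Thrb, the nuclear receptor (ENSMUSG00000021779, chr14 17660261 to 18038090), was at 39.5, 34.0 and 19.5 scaled CPM with GFP, 82.5, 41.0 and 84.3 with Olig2, and 57.5, 63.5 and 72.5 with Olig3. Both factor groups lay wholly above the GFP group. It was the only member without overlap between Olig2 and GFP, and Olig2 library 1, the lowest of all libraries for 5 members, was the second highest for Thrb. The fold over GFP was 2.23 with Olig2 (log2 change 1.16, SE 0.36, edgeR adjusted p = 0.665) and 2.08 with Olig3 (log2 change 1.06, SE 0.36, edgeR adjusted p = 0.286).

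Between Olig2 and GFP, edgeR called 8 of 15609 genes (0.0513%) and 0 of the 10 members, and DESeq2 also called 0 members, against 0.551% of all genes. All 10 fitted changes were above 0. At an unadjusted p below 0.05, 3 members (Pde6h, Gngt2 and Thrb) were higher, against 2.61% of all genes, and 1, Thrb, was without overlap, against 8.47%. The median log2 difference was 0.93, where that of all genes was 0.06. Olig2 library 1 moved this comparison. Without it, 9 of the 10 members had both remaining Olig2 libraries above all GFP libraries (15.0% of all genes), while edgeR called 0 at the adjusted and 5 at the unadjusted threshold of 0.05 (2.36% of all genes for the latter). With Olig2 library 1 alone, that is without the 3 libraries rich in Malat1, the fitted change was below 0 for 7 of the 10 members, among them Arr3 (log2 change -0.93) and Opn1mw (-2.003), and the median was -0.34. That setting was chosen after seeing the data and takes the spread of the single library from the remaining groups.

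Without Olig3 library 2, the library rich in Malat1, 4 members passed by edgeR, namely Pde6c (adjusted p = 0.0116), Arr3 (0.0312), Gnat2 (0.0363) and Opn1sw (0.0363), against 2.98% of all genes (505 genes). Without the 3 libraries rich in Malat1, Arr3 (edgeR adjusted p = 0.0446) and Pde6c (0.0139) passed, against 0.105% of all genes, and 8 of 10 members were higher at an unadjusted p below 0.05, against 4.62% of all genes. Without Olig3 libraries 1 and 3, which had the fewest detected genes, edgeR called 0 members. Of the 10, 8 were higher at the unadjusted threshold of 0.05, against 2.89% of all genes, and the median was 2.002. Only Olig3 library 2 is left there, and the test takes its spread from the GFP and Olig2 libraries. Cnga3 was below 0 without Olig3 library 2 (log2 change -0.50).

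**Figure D4:**
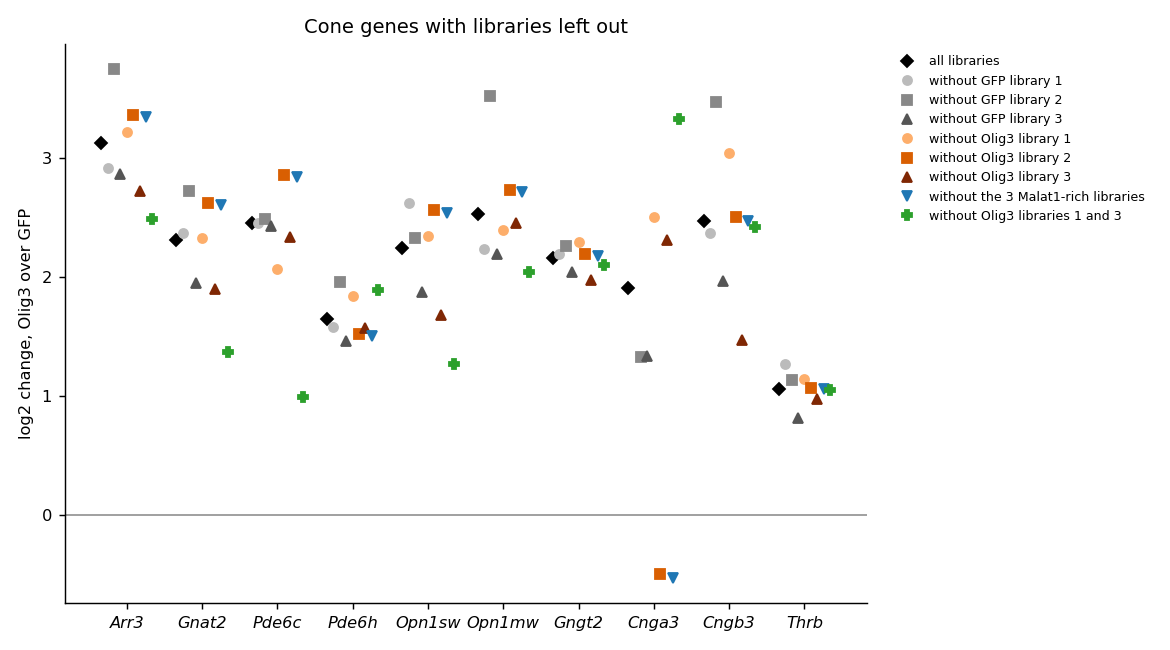
Log2 change of each member for Olig3 over GFP (edgeR) with all libraries and with GFP or Olig3 libraries left out, the 2 last settings having been chosen after seeing the data. Every gene but Cnga3 stays above 0 in all settings shown, and for Pde6c, Gnat2 and Opn1sw the value is lowest without Olig3 libraries 1 and 3. The point of Cnga3 without GFP library 1 is not drawn, since the remaining GFP libraries have 0 counts.

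Between Olig3 and Olig2, edgeR called 6 of 15609 genes (0.0384%) and 0 of the 10 members, and DESeq2 called 1, Pde6c (adjusted p = 0.00654), against 0.525% of all genes. At an unadjusted p below 0.05, 4 members (Arr3, Gnat2, Opn1sw and Pde6c) were higher with Olig3, against 2.07% of all genes. Arr3, Gnat2 and Opn1sw were without overlap, 3 of 10 against 4.41% of all genes. The median log2 difference was 1.21, where that of all genes was -0.23. Without Olig2 library 1 the median was 0.35, and without Olig3 libraries 1 and 3 no member remained at an unadjusted p below 0.05.

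Cone and rod genes were then compared within each library, which is free of the scaling between libraries. The ratio of a cone gene to its rod counterpart was taken per kilobase of exon. Rod genes were higher in the factor groups as well, with 11 of 11 without overlap between Olig2 and GFP (8.47% of all genes) and 5 of 11 between Olig3 and GFP (7.18%). Their median log2 difference was 1.195 with Olig2 and 1.06 with Olig3, where that of all genes was 0.06 and -0.18. EdgeR called 0 of them, with 10 of 11 higher at the unadjusted threshold in each comparison (2.61 and 5.76% of all genes). Arr3 was 3.27, 6.21 and 2.81% of rod arrestin Sag in the GFP libraries, 1.52, 4.78 and 3.45% in the Olig2 libraries, and 26.1, 5.73 and 63.1% in the Olig3 libraries. Olig3 libraries 1 and 3 stood far above, while Olig3 library 2 lay within the GFP range. The gene model of Sag has 8904 exon bases and that of Arr3 2355, which multiplies these values by 3.78. In plain counts Arr3 was 0.744 to 1.64% of Sag with GFP and 6.91, 1.52 and 16.7% with Olig3. Pde6c was 7.76, 5.30 and 5.70% of the rod subunit Pde6b with GFP, 2.69, 6.43 and 3.69% with Olig2, and 21.2, 5.08 and 24.1% with Olig3.

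The same libraries stood apart for most of the 7 pairs. In 5 of 7 pairs Olig3 libraries 1 and 3 exceeded the other 7 libraries, and the exceptions were the channel genes Cnga3 and Cngb3. For Pde6h over Pde6g the margin was only 1.01 times. In no pair did all 3 Olig3 libraries exceed the GFP libraries. In no pair were the Olig2 libraries wholly above or below the GFP libraries. Olig3 libraries 1 and 3 were also those with the fewest detected genes, and the part of this in the ratios was not tested. Their ganglion cell markers summed to 274 and 203 CPM, and their 13 bipolar cell genes to 2154 and 2199 CPM against 965 to 1108 CPM with GFP. Olig2 library 1, with low cone to rod ratios, had a bipolar sum of 1977 CPM, and the 3 remaining libraries 1153 to 1251 CPM.

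**Figure D5:**
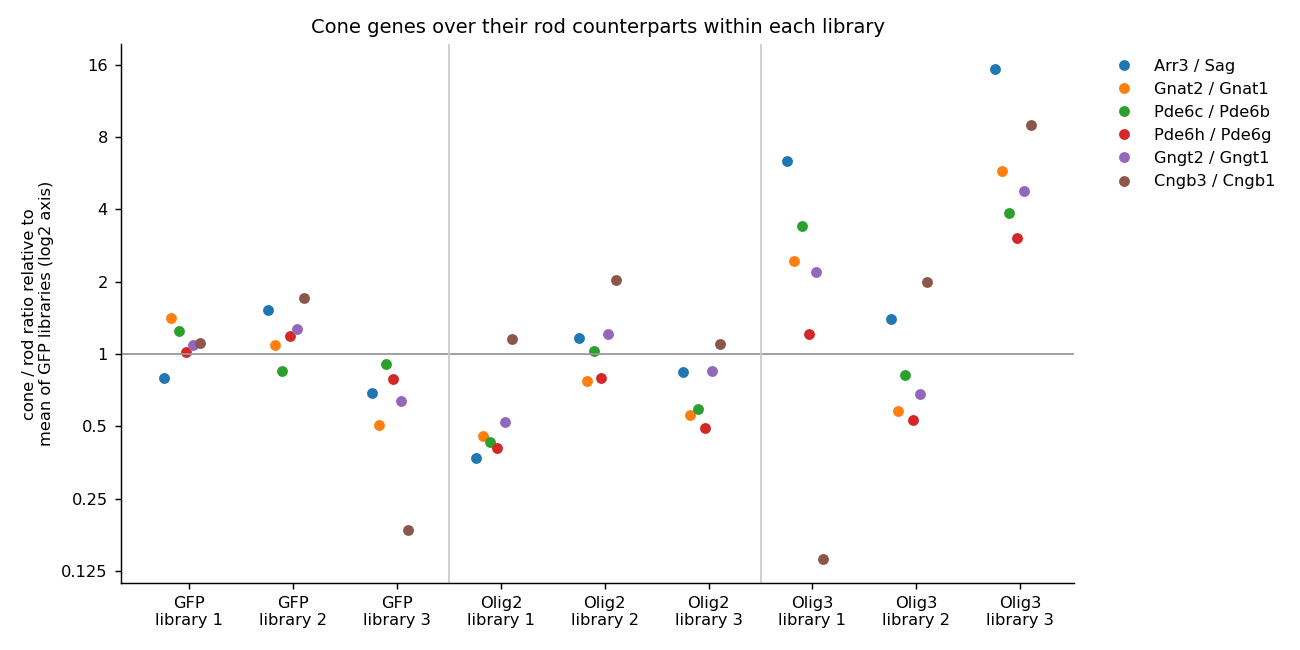
Ratio of a cone gene to its rod counterpart in each library (counts per kilobase of exon), divided by the mean ratio of the 3 GFP libraries, on a log2 axis, with 1 point per pair. Olig3 libraries 1 and 3 lie above the GFP mean for every pair drawn except Cngb3 over Cngb1 in Olig3 library 1, and Olig3 library 2 lies among the GFP and Olig2 libraries. The pair of Cnga3 is not drawn, since it is 0 in 3 libraries.

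The profiles of the members over the 9 libraries were then set beside those of other genes. Likeness was measured as the root mean square difference of centred log2 CPM, where 0 is the same profile, among 12747 tested genes without a Gm, Rik or pseudogene symbol. Nearest to Arr3 were Opn1mw (0.51) and Gnat2 (0.53), followed by Kcnt1, a sodium-activated potassium channel (0.69). Nearest to Pde6h was Gngt2 (0.36), before Epha8 (0.45) and Lekr1 (0.49). Nearest to Gnat2 were Col7a1 (0.47), Opn1sw (0.48) and Arr3 (0.53), and nearest to Opn1sw were Cmtm4 (0.47), Gnat2 (0.48) and Prr36 (0.49). Members thus stood among the 3 nearest of all 4 genes looked at, and the difference between Arr3 and Pde6h was 0.81. Cnga3, Cngb3 and Thrb differed from Arr3 by 2.32, 1.66 and 1.42. Some of the other neighbours had few counts. In the GFP libraries Kcnt1 was at 1.40 to 2.24 scaled CPM, Epha8 at 2.95 to 7.03 and Prr36 at 0.80 to 5.84. In scaled CPM, Pde6h and Gngt2 were about as high in the libraries rich in Malat1 as in Olig3 libraries 1 and 3. Their rod counterparts Pde6g and Gngt1 were also high there, in Olig3 library 2 at 5.94 and 4.78 times the highest GFP library. The other 9 rod genes listed were there at 1.78 (Cnga1) to 3.55 times (Sag) the highest GFP library.

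Of the 10 other genes listed as cone genes, 9 were tested and edgeR called 0. At the unadjusted threshold 3 were higher with Olig3, against 5.76% of all genes. Their median log2 difference from GFP was 1.37 with Olig3 and 0.53 with Olig2. The smallest p were those of Ccdc136 (47.5 ± 10.6 scaled CPM with GFP and 140.9 ± 59.6 with Olig3, log2 change 1.57, SE 0.33, edgeR adjusted p = 0.0940) and of Guca1a, a guanylate cyclase activator (491 ± 112 and 2222 ± 1578, log2 change 2.18, SE 0.47, edgeR adjusted p = 0.105). Guca1a was 3.32-fold above GFP with Olig2 as well (edgeR adjusted p = 0.511). Its highest library was Olig3 library 2, at 4026 scaled CPM against 1548 and 1093 in Olig3 libraries 1 and 3. The rod gene Sag was also highest in Olig3 library 2, which was the lowest Olig3 library for Arr3, Gnat2 and Opn1sw. Of 22 genes shared by rods and cones, 15 were higher with Olig3 at an unadjusted p below 0.05, against 5.76% of all genes. Past the adjusted threshold was 1, the retinol dehydrogenase Rdh12 (2.31-fold, log2 change 1.21, edgeR adjusted p = 0.0454), against 0.205% of all genes.

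Genes of cone fate and thyroid hormone signalling had a median difference near 0. Of 22 listed, 21 were tested and edgeR called 0, with a median log2 difference of -0.0046 between Olig3 and GFP. At an unadjusted p below 0.05, 5 were higher with Olig3, against 5.76% of all genes. At the same threshold 1 was lower, against 995 of all 15609 genes. Crx, the photoreceptor homeobox factor, was 1.75-fold above GFP with Olig3 (log2 change 0.80, SE 0.20, edgeR adjusted p = 0.145), and Nrl, the factor of rod fate, 2.40-fold (log2 change 1.26, edgeR adjusted p = 0.184). The lists overlap. Crx was also counted with the genes shared by rods and cones, and Nrl and Nr2e3 (named here for the overlap) with the rod genes. All of these were among the 5. Thra and Rxrg were chosen after their values were seen. Thra, the other thyroid hormone receptor gene, differed by a log2 change of 0.03 (SE 0.28, edgeR adjusted p = 0.977), and Rxrg, the partner of Thrb in cones, had 9, 3 and 29 counts with GFP and 120, 23 and 7 with Olig3. Among the markers of other cells, Pcp2, Cabp5 and Grm6 of bipolar cells rose with Olig3 (edgeR adjusted p = 0.0363 each), Pcp2 rose with Olig2 as well (3.87-fold, edgeR adjusted p = 0.0127, against 2.76-fold with Olig3), and Vim, of Müller glia and other cells, fell (log2 change -2.99, edgeR adjusted p = 0.0363).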

How the data were processed

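Poly-A RNA of picked cells was measured in 9 libraries, amplified over 20 cycles after the protocol of the SMART-Seq HT kit, per the labels' protocols. The deposited values are raw counts of reads per gene. The submitters' processing notes name FastQC, HISAT2, HTSeq and mm10. Tool versions and HTSeq's strandedness are not stated there, so overlapping genes on either strand cannot be told apart. The members and gene lists were chosen with earlier results of these data known.

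Of 50764 genes, 50712 matched GENCODE release M21, which gave coordinates and exon lengths. Exon lengths are unions of all transcript models, so a long union (Pde6h, Thrb, Sag) lowers a value per kilobase. The 89 identifiers without a symbol were kept. Counts were tested with edgeR 4.0.16 (TMM factors, filterByExpr, 15609 genes, 1 model of group means over all libraries) with Benjamini-Hochberg adjustment, after the script was tested on simulated data. The SE is the log2 change divided by the square root of F. List medians use log2 CPM with a prior count of 2. DESeq2 1.42.0, limma 3.58.1 and the other settings are alternatives.

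Named were all members, their rod counterparts, genes of each list past the threshold (failing that, its 2 lowest p at most) and the 3 genes nearest in pattern to 4 members. Not every gene so named is reported here.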

Additional observations from a re-analysis of the deposited data

How the results depend on the processing

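The count of genes called over all genes depended on the setting. For Olig2 against GFP it was 8, and 176 without a filter, 86 by DESeq2, 23 with only the pair of groups, 5 without the 3 libraries rich in Malat1, 41 without Olig3 libraries 1 and 3, and 0 to 24 with single libraries left out. For Olig3 against GFP it was 32, and 556 without a filter, 493 by DESeq2, 78 by limma-voom, 0 with only the pair of groups, 87 at an adjusted p of 0.1, 20 without the 3 libraries rich in Malat1, 0 without Olig3 libraries 1 and 3, and 0 to 505 with single libraries left out. For Olig3 against Olig2 it was 6, and 140 without a filter, 82 by DESeq2, 1 by limma-voom, 2 with only the pair of groups, 12 at an adjusted p of 0.1, 0 without Olig3 libraries 1 and 3, and 2 to 160 with single libraries left out. The cause was not tested.

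The count of cone genes called, 0 in all comparisons, was 3, 7 and 5 without a filter for Olig2 over GFP, Olig3 over GFP and Olig3 over Olig2. Of all 29429 genes then tested, 0.598, 1.89 and 0.476% were called. The count of cone genes was 6 and 1 by DESeq2 for Olig3 against GFP and against Olig2 (3.16 and 0.525% of all genes). For Olig3 against GFP it was 2 by limma-voom (78 of all 15609 genes). At an adjusted p of 0.1 that count was 2 (0.557% of all genes). Without the libraries rich in Malat1 it was 2 (0.105%), and with single libraries left out 0 to 4 (up to 2.98%). For Olig3 against Olig2 it was 0 to 1 with single libraries left out (0.0118 to 0.945% of all genes). Members higher at an unadjusted p below 0.05 with Olig2 over GFP numbered 6 without a filter (2.31% of all genes), 1 without the libraries rich in Malat1 (0.887%) and 1 to 5 with single libraries left out (1.54 to 3.67%). For Olig3 over Olig2 they numbered 0 without Olig3 libraries 1 and 3 (0.421%). Members without overlap numbered 1 to 9 with single libraries left out for Olig2 over GFP (8.47 to 15.1% of all genes). For Olig3 over Olig2 they numbered 3 to 5 (4.41 to 12.4%), 7 without the Malat1-rich libraries (22.3%) and 6 without Olig3 libraries 1 and 3 (22.6%). The median was -0.34 (Olig2 over GFP) and 2.52 (Olig3 over Olig2) without the Malat1-rich libraries, and 0.35 to 1.62 with single libraries left out for Olig3 over Olig2. The median log2 ratio of cone to rod genes, 1.14 for Olig3 over GFP and 1.24 over Olig2, was -0.28 over GFP without Olig3 libraries 1 and 3 and 2.62 over Olig2 without the Malat1-rich libraries.

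Changes of sign came only from leaving out libraries. Without the Malat1-rich libraries, Olig2 over GFP gave -0.93 for Arr3, -0.51 for Gnat2, -0.37 for Pde6c, -0.71 for Pde6h, -0.090 for Opn1sw, -2.003 for Opn1mw and -0.39 for Gngt2, and Olig3 over GFP gave -0.53 for Cnga3. Without Olig2 library 2, Olig2 over GFP gave -0.0074 for Pde6c and -0.16 for Opn1sw, the highest values with single libraries left out being 0.67 and 0.75. Without Olig3 library 2, Olig3 over GFP gave -0.50 for Cnga3, where the highest was 7.49, against GFP libraries at 0 and no bound. For Olig3 over Olig2, Gngt2 gave -0.30 without Olig2 library 1 and -0.018 without Olig3 library 3 (highest with single libraries left out 0.66, and 2.57 without the Malat1-rich libraries). Thrb gave 0.062 and 0.061 without Olig2 library 1 or 3. Cnga3 gave 0.27 and 0.08 without Olig3 library 1 or 3, 1.09 without both and -2.73 without Olig3 library 2. Leaving out the Malat1-rich libraries, or Olig3 libraries 1 and 3, was chosen after seeing the data.

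Whether the replicate numbers pair the libraries is not known. The correlations of deviations from the group mean ran from -0.0634 to 0.113 between same-numbered libraries. Between differently numbered libraries they ran from -0.115 to 0.0747. With 3 libraries in a group these values cannot decide it. With the replicate number as a block, the count for Olig3 against GFP was 0 in place of 32, that for Olig2 against GFP 10, that for Olig3 against Olig2 8, and 0 members were called in any comparison. Counting noise limits Cnga3, with at most 38 counts in a library.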
